A study of Mus musculus with 12 samples.

Results

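The 7 genes described here are the CXC chemokines Cxcl1, Cxcl2, Cxcl3, Cxcl10, Cxcl14, Cxcl16 and Pf4, chosen by symbol from the 54532 genes of the deposited count table. All 7 were among the 13800 genes with enough counts to be tested. They were measured by poly-A RNA sequencing in mouse bone marrow-derived macrophages, cells grown from the marrow of 8-week-old male mice with 50 ng/mL of the macrophage growth factor M-CSF. The labels give the genotypes Itga9-Lyz2-cHet and Itga9-Lyz2-cKO, written cHet and cKO below, and do not spell out the alleles. Itga9 encodes an integrin alpha chain, a subunit of an adhesion receptor, and Lyz2 is the myeloid lysozyme gene whose locus drives Cre recombinase in Lyz2-Cre mice. The 4 groups were cHet control and cKO control, which received no stimulus, and cHet Pg and cKO Pg, which were stimulated for 2 hours with what the labels name only as Pg (multiplicity of infection 1:20). Each group held 3 libraries, 12 in all, and no group without the conditional genotype was analysed here. Whether the 3 libraries of a group stem from different mice or different cultures is not in the labels, and p-values therefore measure a spread between libraries that may be technical.

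Library totals lay between 14527674 and 16793803 counts. The summed level of 10 macrophage markers was 10731 to 12758 CPM (counts scaled to library size) over the 12 libraries, and no marker of that list was at 0. Itga9 held 17.9 to 34.0 CPM in the 6 cHet libraries and 5.98 to 13.6 CPM in the 6 cKO libraries, so whole-gene counts remained in cKO. Lyz2 was also lower in cKO, at 8746 to 10978 CPM against 17628 to 22004 CPM, so the levels of both genes named in the label did not overlap between genotypes. In the edgeR test used below, 2 of these 2 genes were lower in cKO in controls. Under Pg 1 was lower and 1 did not pass, while DESeq2, an alternative tool, called 2 there. In each group 1 library stood apart from the other pair: cHet control 1, cHet Pg 1, cKO control 1 and cKO Pg 3. Its chi-square per gene against either of the others was 12.8 to 17.2, while the remaining pair of the group gave 2.59 to 5.31. Cxcl10, Cxcl14 and Pf4 moved with these libraries, as shown beside their results. Itga9 did too, at 32.3 CPM in cHet control 1 against 17.9 and 18.9 CPM in cHet control 2 and 3.

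Chemokines are small secreted proteins that bind G protein-coupled receptors on leukocytes and direct their migration, and the CXC family has 1 residue between its first pair of cysteines. Cxcl1, Cxcl2 and Cxcl3 bind Cxcr2 and attract neutrophils. Cxcl10, with Cxcl9 and Cxcl11, binds Cxcr3 on activated T cells and NK cells and is induced by interferons. Cxcl16 is made as a membrane-anchored protein that binds Cxcr6 and takes up oxidized lipid, Pf4 is platelet factor 4 of platelet granules and is also transcribed in macrophages, and Cxcl14 is a chemokine of epithelia and other tissues. In macrophages that meet bacteria, the neutrophil attractants are rapid targets of NF-kB, and their messenger RNAs are short-lived.

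The members fell on 3 chromosomes of the mm10 build. Pf4 (ENSMUSG00000029373, chromosome 5, 90772435 to 90773383), Cxcl3 (ENSMUSG00000029379, 90786103 to 90789600), Cxcl1 (ENSMUSG00000029380, 90891241 to 90893115) and Cxcl2 (ENSMUSG00000058427, 90903871 to 90905938) lay in this order on the plus strand. They belong to a cluster of 7 CXC genes in which the start of Cxcl2 was 144.5 kb from that of Cxcl5. Cxcl10 (ENSMUSG00000034855, 92346638 to 92348889, minus strand) lay between Cxcl9 and Cxcl11 in a second cluster, 1587.3 kb from the start of Cxcl5. Cxcl16 (ENSMUSG00000018920) was on chromosome 11, 70453983 to 70459984, and Cxcl14 (ENSMUSG00000021508) on chromosome 13, 56288643 to 56296551, both on the minus strand. All 7 are annotated as protein-coding. Cxcl10 overlaps Art3 and Cxcl16 overlaps Zmynd15, each on the opposite strand, and the strand setting of the counting is not given in the sources used here. Cxcl1, Cxcl2 and Cxcl3 are similar in sequence, so the split of reads among them depends on how reads with several matches were treated, which is not given either.

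Promoters of 4 members are shown because 3 of these genes rose together with Pg and the fourth fell. They are RefSeq sequences of the GRCm38.p6 build, each from 250 bases before the transcription start to 50 after it, and 6 of the 7 members had an entry. Capitals mark matches to the NF-kB consensus on either strand, overlapping matches merged, and in Cxcl10 also the core of the interferon-stimulated response element (ISRE), searched as GAAANNGAAA. The windows are chr5:90890995-90891294, chr5:90903649-90903948 and chr5:90785851-90786150 on the plus strand and chr5:92348840-92349139 on the minus strand.
Cxcl1: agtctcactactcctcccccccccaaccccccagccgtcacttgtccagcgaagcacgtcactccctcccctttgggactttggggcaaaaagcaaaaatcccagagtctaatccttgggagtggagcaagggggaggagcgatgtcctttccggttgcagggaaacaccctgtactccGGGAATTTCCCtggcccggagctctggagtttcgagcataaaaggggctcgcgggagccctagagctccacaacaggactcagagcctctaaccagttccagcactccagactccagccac
Cxcl2: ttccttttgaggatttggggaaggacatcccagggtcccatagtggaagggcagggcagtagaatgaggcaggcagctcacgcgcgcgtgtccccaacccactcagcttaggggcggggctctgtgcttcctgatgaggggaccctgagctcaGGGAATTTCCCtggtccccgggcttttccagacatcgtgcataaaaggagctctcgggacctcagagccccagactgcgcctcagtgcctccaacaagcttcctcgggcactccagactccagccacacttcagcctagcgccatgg
Cxcl3: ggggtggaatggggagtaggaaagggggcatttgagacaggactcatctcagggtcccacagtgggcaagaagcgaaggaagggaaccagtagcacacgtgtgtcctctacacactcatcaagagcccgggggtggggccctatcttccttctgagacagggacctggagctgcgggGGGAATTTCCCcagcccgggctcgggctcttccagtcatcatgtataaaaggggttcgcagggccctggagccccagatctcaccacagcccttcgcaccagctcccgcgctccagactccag
Cxcl10: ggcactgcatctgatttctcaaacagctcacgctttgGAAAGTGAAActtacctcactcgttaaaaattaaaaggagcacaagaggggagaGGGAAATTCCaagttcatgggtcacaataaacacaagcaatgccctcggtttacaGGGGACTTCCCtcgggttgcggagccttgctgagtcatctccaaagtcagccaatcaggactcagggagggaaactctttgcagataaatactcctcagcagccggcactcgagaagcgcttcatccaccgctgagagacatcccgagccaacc

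The NF-kB match GGGAATTTCC was the same in Cxcl1, Cxcl2 and Cxcl3 and began 71, 97 and 73 bases before the start, each time with an overlapping match on the opposite strand. Cxcl10 held GGGAAATTCC 159 bases before its start, an overlapping group of matches from 104 bases before, and the ISRE core GAAAGTGAAA 213 bases before. The AP-1 sequence TGACTCA, in its reverse form TGAGTCA, was found in Cxcl10 alone of the 6, 74 bases before the start and in lower case above, and TATAAA was found in Cxcl3 alone, 30 bases before. Cxcl14 held an ISRE core, GAAACAGAAA, and the Pf4 window held no match to any of these 4 motifs. Of 32851 promoter windows of the same length, 8.46% held the NF-kB consensus, 3.44% the ISRE core, 5.20% TGACTCA and 13.6% TATAAA. A match is a description of these letters and not evidence of binding.

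Pg raised the 3 neutrophil attractants and lowered Cxcl10 in both genotypes, while Cxcl14, Cxcl16 and Pf4 did not pass the test. Of the 7 members, 3 rose, 1 fell and 3 did not pass in cHet, and the counts were the same in cKO. Every adjusted p below comes from edgeR's quasi-likelihood F test with Benjamini-Hochberg adjustment over the 13800 genes, with 0.05 as the threshold, and log2 fold changes are given ± standard error. Over all tested genes, 36.1% were called in cHet (18.0% higher and 18.0% lower) and 34.0% in cKO (16.9% higher and 17.1% lower). The share of members called, 4 of 7, was above these backgrounds, on a small number of genes that were chosen with earlier results of these data known. The median log2 fold change of the members was 0.84 in cHet and 0.61 in cKO, against -0.007 and -0.004 over all tested genes. In both genotypes this median is the value of Pf4, which did not pass, so it does not describe a rise of the family as a whole.

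**Figure D1:**
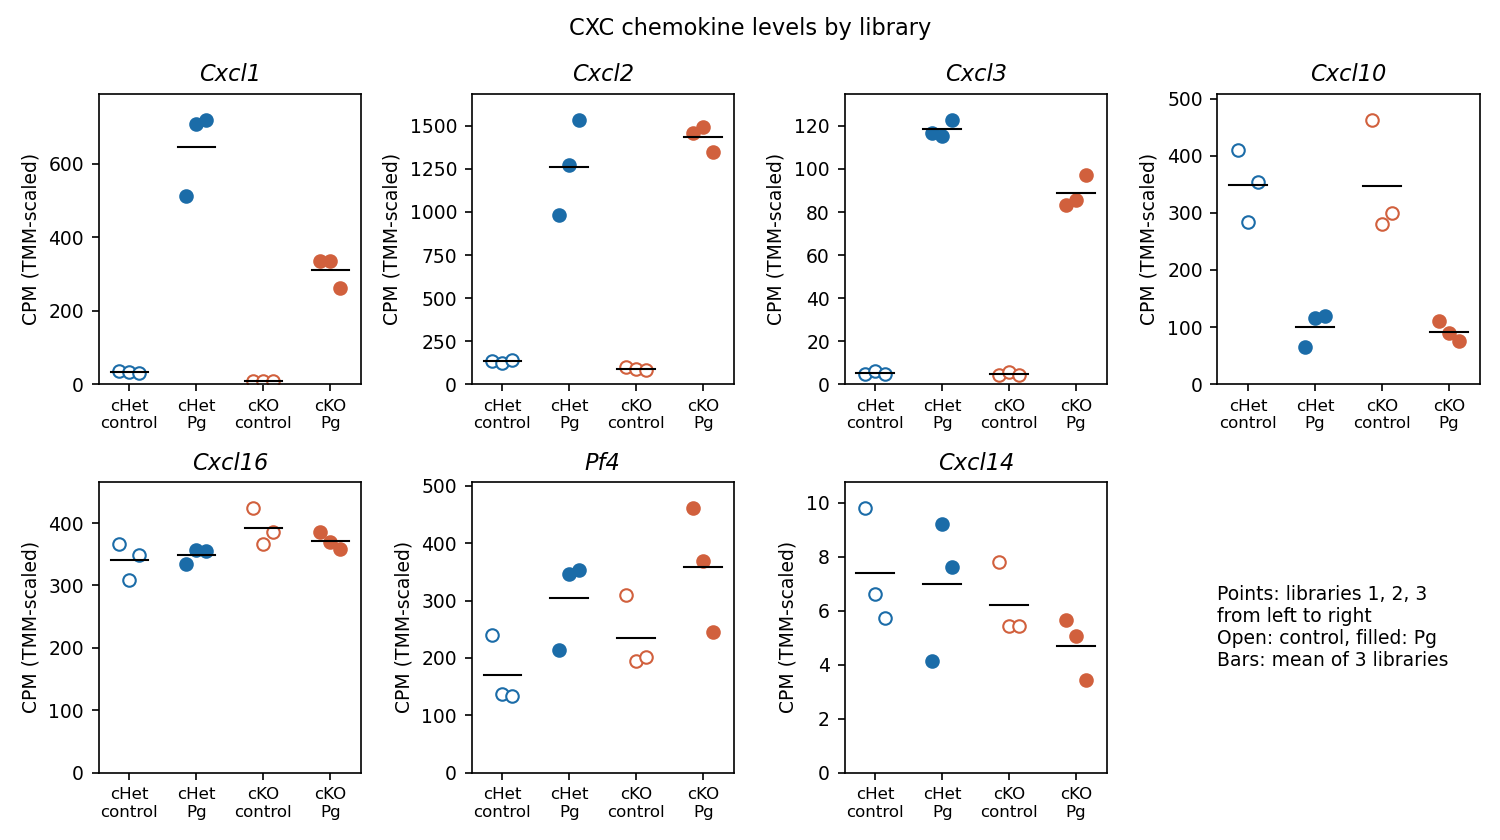
Levels of the 7 CXC chemokines in CPM on TMM-scaled library sizes (vertical axes, each from 0) for the 4 groups; points are libraries 1, 2 and 3 from left to right and bars are means of 3. Cxcl1, Cxcl2 and Cxcl3 are higher in every Pg library than in every control library, Cxcl10 is lower in every Pg library, and the control and Pg points of Cxcl16, Pf4 and Cxcl14 overlap in both genotypes.

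Cxcl1, the neutrophil attractant also called KC, held 36.5, 34.3 and 31.1 CPM in the cHet control libraries and 512, 708 and 719 CPM with Pg. In cKO it held 10.2, 9.47 and 8.93 CPM in controls and 336, 337 and 261 CPM with Pg. The groups did not overlap in either genotype, and cHet Pg 1 and cKO Pg 3, which stand apart, were the lowest of their Pg groups. The log2 fold change was 4.25 ± 0.15 in cHet (adjusted p 5.6e-10) and 5.03 ± 0.16 in cKO (adjusted p 2.1e-10), that is 19.0-fold and 32.6-fold.

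Cxcl2, also known as MIP-2, held 133, 125 and 139 CPM in cHet controls and 981, 1272 and 1534 CPM in cHet with Pg. The cKO libraries held 98.7, 89.2 and 81.0 CPM in controls and 1459, 1495 and 1345 CPM with Pg. Every Pg library lay above every control library, and the cHet Pg libraries were the more spread of the Pg groups (coefficient of variation 21.9% against 5.45% in cKO). The log2 fold change was 3.25 ± 0.14 in cHet (adjusted p 4.2e-09) and 4.0 ± 0.15 in cKO (adjusted p 8.1e-10).

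Cxcl3, the least abundant of the 3 neutrophil attractants, rose from 4.90, 6.29 and 4.67 CPM to 117, 115 and 123 CPM in cHet. In cKO it rose from 4.40, 5.79 and 4.38 CPM to 83.4, 85.6 and 97.2 CPM. Its log2 fold change was 4.48 ± 0.11 in cHet (adjusted p 5.3e-14) and 4.19 ± 0.11 in cKO (adjusted p 2.8e-14). In cHet it had the smallest p of all 13800 genes, at rank 1, and it was among the genes with the smallest p in cKO, at rank 7. Its 3 cHet Pg libraries had a coefficient of variation of 3.31%, while cHet Pg 1 was the lowest of the group for Cxcl1, Cxcl2 and Pf4.

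Cxcl10 fell with Pg. In cHet it held 409.9, 284 and 354 CPM in controls and 64.5, 115 and 120.0 CPM with Pg, and in cKO 463, 280.1 and 299 CPM in controls and 110.1, 89.1 and 75.9 CPM with Pg. The groups did not overlap, and the library that stands apart was the highest of each control group and the lowest of each Pg group. The log2 fold change was -1.80 ± 0.30 in cHet (adjusted p 0.0015) and -1.92 ± 0.30 in cKO (adjusted p 0.00114). Without the 4 libraries that stand apart, it was -1.44 and -1.53, so the direction and the call did not rest on them. That selection keeps the closest pair of each group, so its errors are smaller by construction.

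Cxcl16 was among the more abundant members and its level differed little between groups. Its CPM in cHet were 367, 309 and 348 in controls and 335, 357 and 356 with Pg, and in cKO 423, 366 and 386 in controls and 385, 369.7 and 358 with Pg. The control and Pg libraries overlapped in both genotypes, and the 95% intervals of the log2 fold change, -0.12 to 0.19 in cHet and -0.23 to 0.07 in cKO, excluded changes as large as those of Cxcl1, Cxcl2 or Cxcl3. With library size alone as the scaling, the change was -0.21 in cHet (adjusted p 0.0183) and -0.32 in cKO (adjusted p 0.00105). That scaling moved the median of all genes to -0.25 in both genotypes and Cxcl16 lay within 0.1 of that median in both.

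Pf4 held 239, 136 and 134 CPM in cHet controls and 214, 347 and 353 CPM in cHet with Pg. In cKO its levels were 309, 194 and 202 CPM in controls and 460.4, 369 and 245 CPM with Pg. Both pairs of groups overlapped through the libraries that stand apart, which were high in controls and low with Pg. The log2 fold change was 0.84 ± 0.35 in cHet (adjusted p 0.0964) and 0.61 ± 0.35 in cKO (adjusted p 0.224), with 95% intervals of 0.05 to 1.64 and -0.18 to 1.40. In cHet the change passed the threshold with DESeq2 (adjusted p 0.0434), with edgeR without robust estimation (0.0233) and without cHet control 1 (0.0394). Without all 4 libraries that stand apart it passed in both genotypes, at 1.37 and 1.08 on the log2 scale, with the reservation on errors given for Cxcl10. Ppbp, the next gene to Pf4 and another platelet chemokine, held 41.2, 24.9 and 27.0 CPM in cHet controls and 35.3, 67.1 and 67.4 CPM in cHet with Pg. Like Pf4, it was highest in cHet control 1 among these controls and lowest in cHet Pg 1 among these Pg libraries. The summed level of 10 megakaryocyte and platelet markers, Ppbp included, was 85.0 to 126 CPM in cHet control, 106 to 182 in cHet Pg, 97.6 to 120.0 in cKO control and 108 to 162 in cKO Pg. Of these markers 9 were tested, and 3 rose with Pg in cHet, where 18.0% of all genes did. DESeq2 called 5 of the 9 in cHet, and 5 had an unadjusted p under 0.05. In cKO 0 of the 9 passed with edgeR or DESeq2 (0 at an unadjusted p under 0.05), with medians of 0.612 in cHet and 0.258 in cKO. None of the markers was at 0 in all libraries, and their part in the Pf4 values was not tested. In bulk RNA, fewer cells of a type and less RNA per cell cannot be told apart.

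Cxcl14 was near the low end, with 9.80, 6.64 and 5.73 CPM in cHet controls and 4.15, 9.22 and 7.64 CPM in cHet with Pg. In cKO it held 7.80, 5.42 and 5.43 CPM in controls and 5.65, 5.05 and 3.44 CPM with Pg. The log2 fold change was -0.08 ± 0.28 in cHet (adjusted p 0.858) and -0.40 ± 0.30 in cKO (adjusted p 0.347), and the groups overlapped in both. The cHet value changed sign, to 0.19, without cHet control 1 and, to 0.18, without cHet Pg 1.

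**Figure D2:**
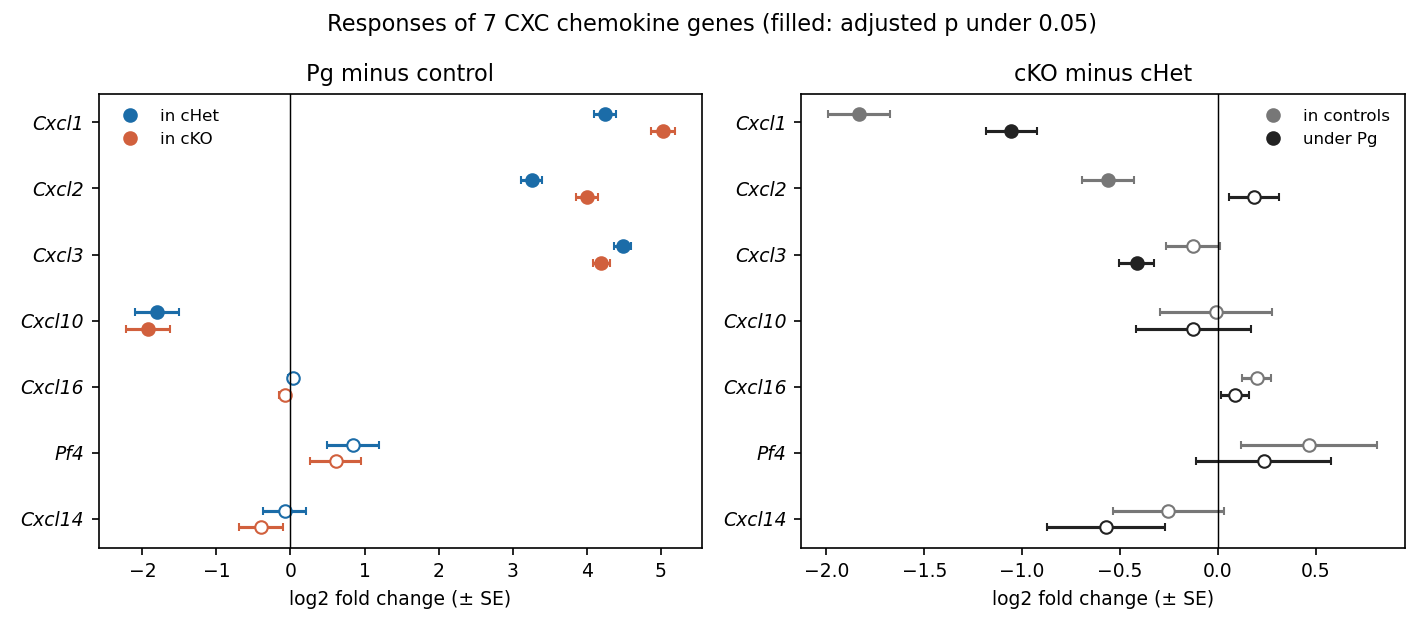
Log2 fold changes with standard errors for Pg minus control in each genotype (left) and for cKO minus cHet in controls and under Pg (right); filled points have an adjusted p under 0.05. The left panel shows 3 members between 3.25 and 5.03 and Cxcl10 at -1.80 and -1.92, and the right panel shows Cxcl1 below 0 in both conditions, Cxcl2 below 0 in controls and Cxcl3 below 0 under Pg.

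Of the remaining 8 genes of the family 5 could be tested, and 1 rose, 1 fell and 3 did not pass in each genotype. That share lay near the 36.1% (cHet) and 34.0% (cKO) of all tested genes called. Cxcl5, another neutrophil attractant of the first cluster, rose by 2.62 ± 0.50 in cHet (adjusted p 0.00056) and by 2.20 ± 0.52 in cKO (adjusted p 0.00304), from 0.37 to 2.31 and from 0.38 to 1.78 CPM. Cxcl9, the neighbour of Cxcl10, changed by -2.16 ± 0.56 in cHet (adjusted p 0.00558) and by -2.16 ± 0.59 in cKO (adjusted p 0.00859), with 91 and 73 counts in the 3 control libraries of each genotype and 17 and 14 with Pg. Cxcl11 had values of -0.66 and -1.79 that did not pass (adjusted p 0.457 and 0.0506), and Ppbp had 0.86 and 0.34 (adjusted p 0.0593 and 0.453). Cxcl11 is annotated as a polymorphic pseudogene and overlaps Art3 and Gm2673 on the opposite strand. Cxcl15 had 1 count in all 12 libraries, and Cxcl13 and Cxcl17 had 0, which allows up to 3 counts in a library, or 0.179 to 0.207 CPM, for counting error only. Summed over the family, the level was 1075 ± 160 CPM in cHet control, 2849.5 ± 525 in cHet Pg, 1123 ± 209 in cKO control and 2707 ± 249 in cKO Pg (SD, n = 3 each).

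**Figure D3:**
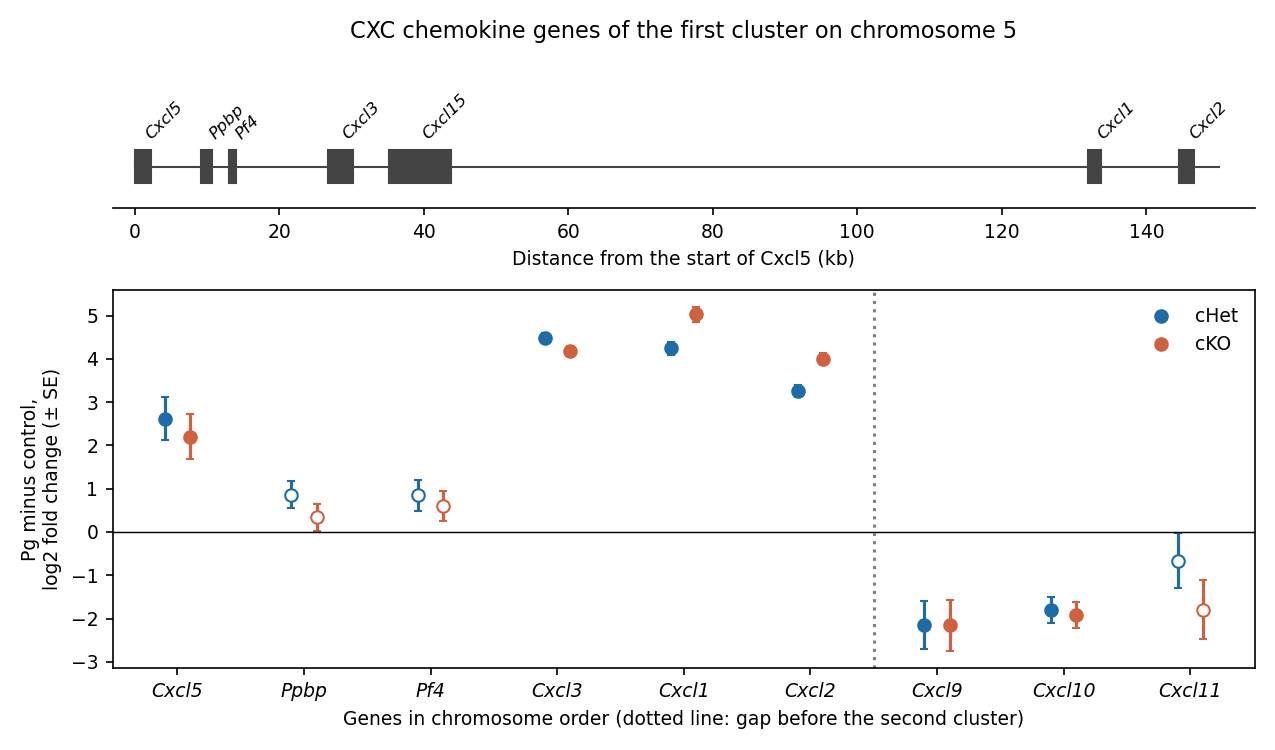
Upper panel: positions of the 7 CXC genes of the first chromosome 5 cluster, as distance in kb from the start of Cxcl5. Lower panel: log2 fold change with Pg (± SE) in chromosome order for the tested genes of both clusters, filled where the adjusted p is under 0.05; the called genes left of the dotted line lie between 2.20 and 5.03, and the called genes to its right between -2.16 and -1.80.

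Levels can be compared between genes only per length, here as counts over the gene length of the table, scaled to the same sum in each library. In every control library of both genotypes the order was Pf4, Cxcl10, Cxcl16, Cxcl2, Cxcl1, Cxcl14 and Cxcl3. Pf4 held 812 ± 278 length-scaled units in cHet control and 1126.5 ± 295 in cKO control, against 5.22 ± 0.886 and 4.82 ± 0.872 for Cxcl3 (SD, n = 3 each). Over the libraries of a group, the ranges of Cxcl10 and Cxcl16 overlapped in cKO control (437 to 702 and 426 to 479 units). With Pg the order became Cxcl2, Pf4, Cxcl1, Cxcl16, Cxcl10, Cxcl3 and Cxcl14 in 5 of the 6 libraries. In cHet Pg 1 Cxcl3 (93.9 units) was above Cxcl10 (80.5 units). Cxcl2 reached 1740.0 ± 396 units in cHet Pg and 2020.2 ± 114 in cKO Pg, and Cxcl1 983 ± 187 and 484 ± 69.1. In cHet Pg the range of Pf4 (835 to 1402 units) overlapped those of Cxcl2 and Cxcl1 across libraries, although Cxcl2 was above Pf4 and Pf4 above Cxcl1 within each of the 3. The table's length of Cxcl1, Cxcl2, Cxcl3 and Cxcl10 equals their genomic span, introns included, which lowers their per-length level. With the length of 1 principal spliced transcript, an alternative chosen after the data were seen, Cxcl10 came first in cHet control, Cxcl1 second in cHet Pg, and Cxcl3 above Cxcl14 in controls and above Cxcl10 with Pg, by group means.

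Between genotypes, Cxcl1 was lower in cKO in both conditions, Cxcl2 was lower in controls and Cxcl3 was lower under Pg. In controls 2 of the 7 members were lower and 5 did not pass, against 5.15% of all tested genes called (2.13% higher and 3.02% lower). Under Pg 2 of the 7 were lower and 5 did not pass, against 1.85% called over all genes (0.652% higher and 1.20% lower). Here too the members are few and were chosen with earlier results of these data known. The members' median log2 difference was -0.126 in controls and -0.125 under Pg, against 0.003 and 0 over all genes. These medians are the values of Cxcl3 in controls and of Cxcl10 under Pg, which did not pass there.

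Cxcl1 averaged 34.0 ± 2.68 CPM in cHet control and 9.55 ± 0.656 CPM in cKO control (SD, n = 3 each). The log2 difference was -1.83 ± 0.16 (adjusted p 2.5e-05). Under Pg it averaged 647 ± 116 CPM in cHet and 311 ± 43.5 CPM in cKO, a log2 difference of -1.05 ± 0.13 (adjusted p 0.000709). All 3 cKO libraries lay below all 3 cHet libraries in each condition, and no alternative ended either call. In CPM, the increase with Pg was 613 in cHet and 302 in cKO, so the genotype with the smaller log2 fold change had the larger increase in CPM.

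Cxcl2 averaged 132 ± 6.67 CPM in cHet control and 89.6 ± 8.86 CPM in cKO control, a log2 difference of -0.56 ± 0.13 (adjusted p 0.0334). Every cKO control library was below every cHet control library, but the call was lost in 9 of 22 alternatives, 7 of them the removal of 1 library: cHet control 1, 2 or 3, cKO control 2 or 3, cHet Pg 2 or cKO Pg 1 (adjusted p 0.0518 to 0.125). Without a filter on low counts its adjusted p was 0.0504, and with the replicate block it was 0.0676. Between these control groups all 3 pairs of same-numbered libraries deviated together from their group means (r 0.666, 0.176 and 0.188). Under Pg the libraries overlapped and the difference was 0.18 ± 0.13 (adjusted p 0.648).

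For Cxcl3 the control libraries overlapped between genotypes (-0.13 ± 0.14, adjusted p 0.707), while under Pg it averaged 118 ± 3.92 CPM in cHet and 88.7 ± 7.41 CPM in cKO, with no overlap. The log2 difference under Pg was -0.42 ± 0.09 (adjusted p 0.0178). This call was lost without cHet Pg 2, cHet Pg 3, cKO Pg 1 or cKO Pg 2 (adjusted p 0.0545 to 0.116).

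The other members gave no genotype call. Cxcl16 was 0.20 ± 0.07 higher in cKO controls (adjusted p 0.137) and 0.09 ± 0.07 higher under Pg (adjusted p 0.709). Pf4 had differences of 0.47 ± 0.35 and 0.23 ± 0.34, Cxcl10 of -0.01 ± 0.28 and -0.12 ± 0.30, and Cxcl14 of -0.25 ± 0.28 and -0.57 ± 0.30, in controls and under Pg, with adjusted p between 0.494 and 0.991. The 95% intervals for Cxcl10 ran from -0.66 to 0.64 in controls and from -0.80 to 0.55 under Pg, so a difference of the size seen for Cxcl1 in controls lay outside them. Without the 4 libraries that stand apart, Pf4 passed the threshold in both conditions (0.55 and 0.26), Cxcl16 in controls (0.20) and Cxcl14 under Pg (-0.64), again with errors made small by the selection.

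Markers of stromal cells and fibroblasts moved with genotype. The summed level of the 12 markers was 30.9 to 32.4 CPM in cHet control and 30.3 to 39.2 in cHet Pg, and 2.43 to 3.57 in cKO control and 3.49 to 5.51 in cKO Pg. Of the 6 markers tested, 5 were lower in cKO in each condition, and Lum was at 0 in all 12 libraries. For this and the other marker lists below, the share of all tested genes called in controls was 3.02% lower and 2.13% higher. Under Pg it was 1.20% lower and 0.652% higher. Of 6 endothelial markers, 2 were lower in cKO in controls and 1 under Pg (median log2 difference -0.346 and -0.669). All 6 had an unadjusted p under 0.05 under Pg, but not all in the same direction. Pecam1 was higher in cKO there, at 20.0 to 28.3 CPM in cKO Pg against 14.8 to 18.0 in cHet Pg. The summed level of the 6 endothelial markers was 95.1 to 96.8 CPM in cKO control against 104 to 118 in cHet control. With Pg it was 96.2 to 116 in cKO against 114 to 120.1 in cHet, where the groups overlapped. The summed level of 5 erythroid markers was 11.8 to 19.1 CPM in cKO control against 23.1 to 30.8 in cHet control, and 4.84 to 13.3 in cKO Pg against 12.02 to 20.8 in cHet Pg. Of these 2 were tested and 0 passed with edgeR in either condition, with 1 and 2 at an unadjusted p under 0.05 and 1 and 0 called by DESeq2. Of 4 B and plasma cell markers tested, 1 was higher in cKO controls. The 10 neutrophil markers had median differences of -0.328 in controls and -0.42 under Pg, and 0 passed with edgeR or DESeq2 (3 and 1 at an unadjusted p under 0.05). Cxcl12, the CXC chemokine that marrow stromal cells use to hold stem cells and neutrophils, moved with them, at 97 and 71 counts over the cHet control and Pg libraries and 6 and 9 over those of cKO. Its log2 difference was -3.89 ± 0.55 in controls (adjusted p 0.00032) and -2.94 ± 0.53 under Pg (adjusted p 0.00466). Of the 5 tested genes of the rest of the family, 1, Cxcl12, passed in these comparisons. The part of any of these cells in the differences of Cxcl1, Cxcl2, Cxcl3 and Cxcl12 was not tested.

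The test of whether the Pg response differed between genotypes (the response in cKO minus the one in cHet) called 0 of the 7 members with edgeR, against 0.717% of all genes (0.457% higher and 0.261% lower). Unadjusted p was under 0.05 for 2 members, Cxcl1 and Cxcl2, and DESeq2 called 2. The interaction was 0.78 ± 0.20 for Cxcl1 (95% interval 0.33 to 1.22, adjusted p 0.126) and 0.75 ± 0.19 for Cxcl2 (0.34 to 1.15, adjusted p 0.111). With DESeq2 the adjusted p were 0.00854 and 0.00458. Cxcl1 also passed with no filter on low counts (7.7e-05) and without cKO Pg 3 (0.0318), and Cxcl2 without cHet Pg 1 (0.0361) or cHet Pg 3 (0.012). Cxcl3 had an interaction of the other sign, -0.29 ± 0.17 (adjusted p 0.511), and the remaining 4 members lay between -0.32 and -0.11. This contrast is built from the same libraries as both genotype differences and is tied to them by construction.

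A share within a library does not depend on the scaling between libraries. Of the summed per-length level of Cxcl1, Cxcl2 and Cxcl3, Cxcl1 made up 22.8, 22.7 and 19.5% in cHet control and 10.03, 10.1 and 10.5% in cKO control. With Pg its share was 35.0, 36.8 and 33.1% in cHet and 19.7, 19.4 and 17.0% in cKO. The share of Cxcl1 was thus lower in cKO than in cHet in each condition and higher with Pg than without in each genotype, with no overlap in any of these 4 comparisons. Cxcl2 made up the larger part throughout, with means of 76.5% in cHet control, 61.5% in cHet Pg, 87.0% in cKO control and 78.4% in cKO Pg. Cxcl3 made up 1.82, 3.51, 2.80 and 2.89% in the same order. For each comparison of Cxcl1 and Cxcl2 the two-sided exact permutation p was 0.1, the smallest that 3 libraries against 3 can give, and 0.12 after adjustment over the 12 tests, so no share could pass the threshold.

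**Figure D4:**
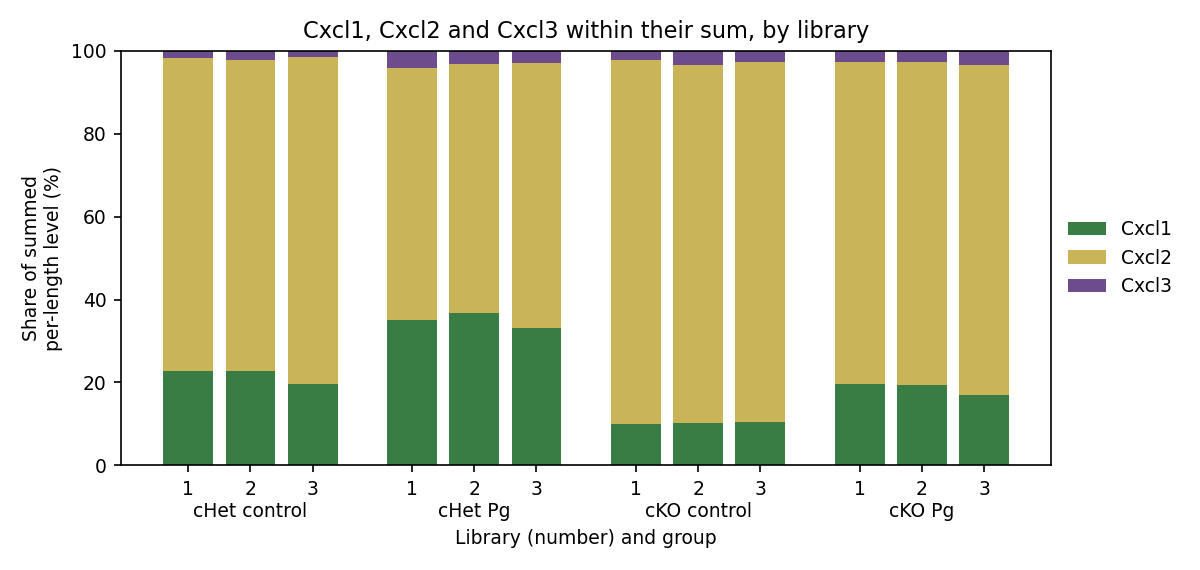
Share of Cxcl1, Cxcl2 and Cxcl3 in their summed per-length level (vertical axis, percent) for each of the 12 libraries, grouped by genotype and treatment. The Cxcl1 part of the bar lies between 33.1 and 36.8% in cHet Pg, between 17.0 and 19.7% in cKO Pg, and is smallest in cKO control, at 10.03 to 10.5%.

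The receptors of these ligands were lower with Pg or did not pass. Of 8 receptor genes 5 were tested, 3 fell and 2 did not pass in cHet, and 2 fell and 3 did not pass in cKO, with medians of -0.80 and -0.53. Over all tested genes, 18.0% fell in cHet and 17.1% in cKO. Cxcr4, the receptor of Cxcl12, fell by 1.24 ± 0.15 in cHet (adjusted p 7.7e-05) and by 0.91 ± 0.15 in cKO. Cxcr3, the receptor of Cxcl10, fell by 0.80 ± 0.17 and by 0.51 ± 0.17. Cxcr2, which binds the neutrophil attractants, fell by 1.17 ± 0.40 in cHet (adjusted p 0.0331) and had -0.53 ± 0.46 in cKO (adjusted p 0.414), at no more than 4.23 CPM in any library. Between genotypes 0 of the 5 passed in controls with edgeR or DESeq2 (1 at an unadjusted p under 0.05), and 0 under Pg with either tool (0 unadjusted).

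Most of the NF-kB genes listed, inhibitors among them, rose with Pg, and their part in the levels of the neutrophil attractants was not tested. Of 13 NF-kB subunits and inhibitors, 12 rose and 1 did not pass in each genotype, with medians of 0.79 in cHet and 0.76 in cKO. Over all tested genes, 18.0% rose in cHet and 16.9% in cKO. Tnfaip3, the feedback inhibitor A20, rose by 2.13 ± 0.07 in cHet and 2.65 ± 0.07 in cKO, and Nfkbia, which encodes the inhibitor that retains NF-kB in the cytoplasm, by 1.51 ± 0.06 and 1.76 ± 0.06. In controls Tnfaip3 (-0.67 ± 0.07, adjusted p 7.0e-06), Nfkbia (-0.41 ± 0.06) and Nfkbid (-0.72 ± 0.13) were lower in cKO and Nfkb1 was higher (0.39 ± 0.09), while under Pg 0 of the 13 passed with edgeR or DESeq2 (4 at an unadjusted p under 0.05). Of the list, Tnfaip3 alone passed the test of the difference in Pg response (0.52 ± 0.09, adjusted p 0.0126), where DESeq2 called 3.

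Among 11 factors that set the decay or stability of chemokine transcripts, 6 rose and 1 fell in cHet and 5 rose and 1 fell in cKO, with medians of 0.35 and 0.29. The share of all tested genes called was 36.1% in cHet and 34.0% in cKO. Zfp36, which encodes tristetraprolin, a protein that binds AU-rich elements and speeds decay, rose by 1.79 ± 0.07 in cHet and by 2.55 ± 0.08 in cKO. Zc3h12a, the RNase Regnase-1, rose by 1.47 ± 0.06 and by 1.80 ± 0.07, and Zfp36l2 fell by 0.65 ± 0.07 and by 0.70 ± 0.07. Between genotypes in controls, 2 of the 11 were higher in cKO and 2 were lower, where 5.15% of all tested genes were called. Elavl1 (0.32 ± 0.07, adjusted p 0.0144) and Rc3h2 (0.39 ± 0.09, adjusted p 0.0150) were higher. Zc3h12a was lower (-0.36 ± 0.06, adjusted p 0.0032). Zfp36 was also lower in cKO controls (-0.77 ± 0.07, adjusted p 4.0e-06), had -0.02 ± 0.07 under Pg (adjusted p 0.96) and passed the interaction test (0.76 ± 0.10, adjusted p 0.00338).

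The 10 genes of the interferon pathway, which lies upstream of Cxcl10, did not move 1 way. In cHet 4 rose and 3 fell, and in cKO 2 rose and 3 fell, with medians of -0.10 and -0.15. The receptor gene Ifnar2 rose by 0.55 ± 0.06 in cHet and by 0.47 ± 0.06 in cKO. Irf8 fell by 0.41 ± 0.07 in cHet and was lower in cKO controls (-0.35 ± 0.07, adjusted p 0.00469). Irf9, a transcription factor of the interferon response, fell by 0.40 ± 0.10 in cHet and by 0.76 ± 0.10 in cKO. Stat2, a signal transducer of type I interferon receptors, fell by 1.31 ± 0.14 in cKO. In cHet it was also lower with Pg, at 62.0 to 73.9 CPM against 82.2 to 108 CPM in controls. Irf1, a transcription factor induced by interferons, rose by 0.33 ± 0.09 in cHet and 0.93 ± 0.09 in cKO and was lower in cKO controls (-0.77 ± 0.09, adjusted p 2.8e-05), with an interaction of 0.60 ± 0.12 (adjusted p 0.0267). Of 14 genes of Toll-like receptor sensing, 7 rose and 3 fell in cHet and 5 rose and 4 fell in cKO. The adaptor Ticam1 rose by 1.23 ± 0.09 and 1.56 ± 0.09, and the co-receptor Cd14 by 1.33 ± 0.20 and 1.22 ± 0.20. Irak2 rose by 0.29 ± 0.06 and 0.36 ± 0.06, and Irak3 by 0.41 ± 0.07 in cHet. The receptor gene Tlr4 fell by 0.48 ± 0.08 in cKO (adjusted p 0.000231). It averaged 57.0 CPM in cKO control and 40.9 in cKO Pg, against 45.3 in cHet control and 40.0 in cHet Pg. In controls 2 of the 14 were higher in cKO, where 2.13% of all tested genes were. They were Tlr4 (0.33 ± 0.08, adjusted p 0.0258) and Irak3 (0.50 ± 0.07, adjusted p 0.000409). For both lists of this paragraph, the share of all tested genes called with Pg was 36.1% in cHet and 34.0% in cKO.

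By Pearson r of log2 CPM over the 12 libraries, among 10997 genes outside the 7 members, the genes most like Cxcl1 were Lrp12 (0.991), Cdkn1a (0.990) and Dusp1 (0.989). Klf6 (0.998), Dusp5 and Rel were most like Cxcl2, and Kctd12 (0.996), Fosl2 and Sgms1 most like Cxcl3. Cxcl10 was nearest to Themis2 (0.988), Ifit3 and 9930111J21Rik2, and Pf4 to Rangap1 (0.982), Scarf1 and Pdia6. Cxcl14 was nearest to Chaf1a (0.950), Pou3f1 and Irf7, and Cxcl16 had the weakest likeness, with Rpf1 at 0.893. The 12 points share their treatment groups and the libraries that stand apart, so these values describe these libraries and carry no test.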

How the data were processed

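Macrophage poly-A RNA was sequenced in 4 groups of 3 libraries. The authors deposited 1 table of raw counts for each gene and library. The tools named in the submitters' processing notes are HISAT2 2.0.5, featureCounts 1.5.0-p3 and fastp, the build is mm10, and the treatment of strand and of reads with several matches is not given in the sources used here. Per the labels' protocols, fragments of 370 to 420 bp were selected. The deposited table also gives each gene's length, which serves only to compare genes.

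Groups follow the genotype and treatment in the labels. In R 4.3.3 with edgeR 4.0.16, filterByExpr kept 13800 genes, which held 99.9% of the counts in the library with the lowest such share. Libraries were scaled by TMM, all 12 libraries entered a model with a coefficient for each group, and the robust quasi-likelihood F test was adjusted over all tested genes at 0.05. Standard errors are log2 fold change divided by the root of F, and 95% intervals use it with the degrees of freedom of that test. CPM are on TMM-scaled sizes. The 5 comparisons were Pg against control in each genotype, cKO against cHet in each condition, and the interaction. The code was tested on simulated counts. Promoters were searched on both strands with a text match.

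The members, lists and markers were chosen with earlier results of these data known. Named were all members, the rest of the family, and the 3 genes nearest each member in pattern. From each list up to 4 genes a comparison were drawn, those past the threshold with the smallest p first and then the most abundant. Not all of the genes drawn are printed, and the choice among them followed no set rule. Alternatives were other scalings, filters, DESeq2 1.42.0, edgeR without robust estimation, only the groups compared, the replicate block and leaving out libraries.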

Additional observations from a re-analysis of the deposited data

How the results depend on the processing

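Of 763 alternative values of the 35 fold changes of the members, 713 kept their direction and their side of the threshold, 13 lost the call, 18 gained one and 19 changed sign. No call of Cxcl1, Cxcl2, Cxcl3 or Cxcl10 in the Pg comparisons, and none of Cxcl1 between genotypes, was lost. The sign changes were all in values that passed no test in the reported fit. With Pg in cHet, Cxcl14 gave -0.33 to 0.19 on leaving out 1 library (0.19 without cHet control 1, 0.18 without cHet Pg 1) and 0.44 without the 4 libraries that stand apart. Cxcl16 with Pg in cHet gave -0.21 with library size alone, -0.0066 with upper-quartile factors and -0.035 to 0.097 on leaving out 1 library, and in cKO 0.012 without the 4 libraries. Leaving out 1 library gave, between genotypes in controls, -0.26 to 0.018 for Cxcl3, -0.27 to 0.13 for Cxcl10 (0.0015, 0.09 and 0.13 among them) and -0.45 to 0.013 for Cxcl14, and under Pg -0.36 to 0.029 for Cxcl10. For the interaction it gave -0.35 to 0.15 for Cxcl10 (0.0043, 0.014 and 0.04 among them) and -0.57 to 0.016 for Pf4.

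Leaving out 1 library, between genotypes, gave 1 to 2 members called in controls and 1 to 2 under Pg, and 0 to 1 for the interaction. All genes called were then 319 to 828, 153 to 307 and 42 to 207. With no filter on low counts 1101, 507 and 389 genes were called, with 1 member in controls and 1 for the interaction. DESeq2 called 259 genes and 2 members for the interaction. Without the 4 libraries that stand apart, chosen after the data were seen, 1422, 771 and 868 genes and 4, 4 and 2 members were called, with smaller errors by construction since the closest pair of each group remains. Of the shares, Cxcl3 differed by 1.60 (raw counts) or 1.76 (principal transcript length) percentage points between genotypes in controls and by 2.89 or 2.91 with Pg in cHet. With Pg in cKO it differed by -0.17 to 0.35 on leaving out 1 library. Library size alone moved the share of rises among called genes with Pg from 50 to 19.1% in cHet and from 49.7 to 18.7% in cKO, and the median of all genes to -0.25. Depth limits the genes of few counts, such as Cxcl9, Cxcl11 and Cxcl12.

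Over the 4 groups the shared replicate numbers did not pair the libraries: r of the deviations of same-numbered libraries from their group means was -0.552 to 0.666 over 18 pairs, and 8 were above 0.1. Between the control groups of the genotypes all 3 pairs were above 0.1, although libraries 2 and 3 correlated better with each other's number (0.469 and 0.412) than with their own (0.176 and 0.188). Not every library correlated best with its own number. With the replicate block 4723, 4448, 549, 220 and 70 genes were called in the 5 comparisons, against 4980, 4687, 711, 255 and 99, and 1 member in place of 2 between genotypes in controls, where Cxcl2 had an adjusted p of 0.0676. Fitting only the groups compared could not be done for the interaction, which needs all 4.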

Other observations

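Of the inflammatory CC chemokines Ccl2, Ccl3, Ccl4, Ccl5 and Ccl7, 4 rose with Pg in each genotype, while 18.0% of all tested genes rose in cHet and 16.9% in cKO. Ccl5 did not pass, at a log2 fold change of 0.66 ± 0.26 in cHet (adjusted p 0.0791) and -0.33 ± 0.26 in cKO (adjusted p 0.373). Ccl2, which attracts monocytes, rose by 2.14 ± 0.16 in cHet and by 3.15 ± 0.17 in cKO on the log2 scale, and Ccl7 by 2.35 ± 0.20 and by 3.31 ± 0.21. In controls both were lower in cKO, Ccl2 at a log2 difference of -0.92 ± 0.16 (adjusted p 0.00893) and Ccl7 at -0.93 ± 0.21 (adjusted p 0.0343). Under Pg 0 of the 5 passed between genotypes with edgeR or DESeq2 (0 at an unadjusted p under 0.05). The interaction test called 0 of the 5 with edgeR, 3 at an unadjusted p under 0.05 and 3 with DESeq2.

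Of 8 proteases known to cut or shed CXC chemokines, 2 rose and 6 did not pass in cHet, and 1 rose and 1 fell in cKO. Both shares were below the 36.1% (cHet) and 34.0% (cKO) of all tested genes called. Mmp13, a collagenase, rose by 2.67 ± 0.13 in cHet and by 2.43 ± 0.14 in cKO, and Mmp8, the neutrophil collagenase, by 0.52 ± 0.11 in cHet, with -0.0086 ± 0.11 in cKO (adjusted p 0.963). Adam10, which sheds the Cxcl16 ectodomain, fell by 0.16 ± 0.05 in cKO (adjusted p 0.0259) and had a value of like size in cHet that did not pass (-0.13 ± 0.05, adjusted p 0.06). Between genotypes, Mmp9 was lower in cKO controls (-0.82 ± 0.20, adjusted p 0.0453), and under Pg it had -0.83 ± 0.20, which did not pass (adjusted p 0.0811). Ctsg, a neutrophil granule protease, was lower in cKO under Pg (-0.95 ± 0.14, adjusted p 0.000684) and had -0.24 ± 0.14 in controls (adjusted p 0.388). Under Pg DESeq2 called 3 of the 8 proteases, against 1 with edgeR. The interaction passed for neither gene (adjusted p 0.995 for Mmp9 and 0.117 for Ctsg). The summed level of 10 neutrophil markers was 860.3 to 1041 CPM in cHet control and 827 to 941 in cKO control, and 913 to 1145 in cHet Pg and 844 to 1065 in cKO Pg, with overlap in both conditions.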
